A study of Mus musculus with 12 samples.

Results

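The guanylate-binding proteins (Gbp genes) were examined in 12 bulk RNA libraries of CD4 T cells from the spleens of C57BL/6 mice infected with Leishmania donovani, a protozoan that lives inside macrophages and causes visceral leishmaniasis. The members were the 10 genes Gbp2 to Gbp11, matched by symbol among the 55401 genes of the deposited count files. They were taken as a family by name, but with earlier results of these data known. 6 libraries came from LAG-3+ CXCR5+ PD-1lo/int cells, called TLCP here, and 6 from CXCR5+ PD-1hi T follicular helper cells, called Tfh here. All were taken at day 21 of infection, after magnetic enrichment of CD4 T cells and a flow cytometry sort, so both groups were infected and no uninfected group was analysed here. The series gives 6 mice, and libraries are numbered 1 to 6 in each group.

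Guanylate-binding proteins are large GTPases of the dynamin superfamily whose genes are switched on by interferons, above all by interferon gamma. In infected cells they coat vacuoles and bacteria in the cytosol, help to break the vacuole membrane and help to start inflammasome signalling. Most of this work was done in macrophages and fibroblasts. Mouse Gbp genes lie in a cluster on chromosome 3 and a cluster on chromosome 5, and members of the chromosome 5 cluster are close copies of each other.

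In TLCP, 9 of the 10 members were higher than in Tfh and none was lower (16.8% of all genes tested were higher and 16.4% lower). The exception was Gbp9, which was higher in TLCP by 1.22-fold and missed the threshold. The log2 fold changes of the 10 members ran from 0.29 to 2.19, with a median of 1.29, beside a median of -0.0041 over all 12015 genes tested. The threshold was an adjusted p of 0.05 in edgeR's quasi-likelihood test, which 33.2% of all genes tested passed in either direction. 8 members were called and at least 2-fold higher, which 6.57% of all genes tested were. In 7 members every TLCP library lay above every Tfh library, and 8.3% of all genes tested did the same. All 10 members passed the filter on low counts, so all of them are in these counts.

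Promoters of the chromosome 3 members are shown first, because the family is known for its interferon response. The sequences are the 250 bases before the start site on the plus strand of GRCm38.p6 from RefSeq. They span chr3:142496684-142496933 for Gbp5, chr3:142530086-142530335 for Gbp7, chr3:142559794-142560043 for Gbp3 and chr3:142620413-142620662 for Gbp2. Capitals mark matches to TTCNNNGAA, the gamma-activated sequence (GAS) found at genes that respond to interferon gamma, or to GAAANNGAAA and its reverse complement TTTCNNTTTC, the core of the interferon-stimulated response element (ISRE).
Gbp5: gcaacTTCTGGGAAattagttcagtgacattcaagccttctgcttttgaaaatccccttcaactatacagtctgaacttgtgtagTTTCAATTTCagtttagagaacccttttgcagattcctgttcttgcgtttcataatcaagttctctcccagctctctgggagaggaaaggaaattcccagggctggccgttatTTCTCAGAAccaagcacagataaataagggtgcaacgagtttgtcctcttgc
Gbp7: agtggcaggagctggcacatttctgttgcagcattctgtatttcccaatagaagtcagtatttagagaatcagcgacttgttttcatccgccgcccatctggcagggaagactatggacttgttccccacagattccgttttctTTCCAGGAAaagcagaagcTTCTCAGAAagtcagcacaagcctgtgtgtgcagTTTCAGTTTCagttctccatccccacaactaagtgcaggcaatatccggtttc
Gbp3: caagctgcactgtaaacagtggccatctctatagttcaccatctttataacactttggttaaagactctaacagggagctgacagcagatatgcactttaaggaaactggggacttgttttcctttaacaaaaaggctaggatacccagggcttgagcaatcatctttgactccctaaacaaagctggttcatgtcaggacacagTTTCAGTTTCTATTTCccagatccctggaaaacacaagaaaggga
Gbp2: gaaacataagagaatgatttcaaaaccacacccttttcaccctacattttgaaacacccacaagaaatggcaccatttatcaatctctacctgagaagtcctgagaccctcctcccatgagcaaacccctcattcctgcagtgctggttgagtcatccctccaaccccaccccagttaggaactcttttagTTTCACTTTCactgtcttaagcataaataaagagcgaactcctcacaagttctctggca
Gbp5 had GAS letters at 245 to 237 and at 52 to 44 bases before its start site, and an ISRE core at 165 to 156 bases before it. Gbp7 had GAS letters at 106 to 98 and at 87 to 79 bases and an ISRE core at 53 to 44 bases before the start. Gbp3 had a pair of overlapping ISRE cores, at 45 to 36 and 39 to 30 bases before the start shown, and no match at its second listed start site. Gbp2 had 1 ISRE core at 59 to 50 bases before the start. Of 32851 promoters of 300 bases, 8.3% held the GAS letters on either strand, 3.44% held the ISRE core and 0.454% held both. The chromosome 5 members Gbp4, Gbp6, Gbp8, Gbp9, Gbp10 and Gbp11 had no entry in the promoter table used here. A match of letters describes the window and does not show binding. Whether the matches bear on the changes of the members was not tested.

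Library depth ran from 6939770 to 12688306 reads assigned to genes. No member was at 0 in any library; where a gene was, a floor of 3 counts puts its level at no more than 0.236 to 0.432 CPM, by counting error only. Levels below are CPM, counts per 1e6 reads scaled by the TMM method of edgeR, and fold changes are TLCP over Tfh. The sort was visible in its own genes: TLCP held 189 ± 31.2 CPM of Lag3 (SD, n = 6) and Tfh 40.5 ± 11.1 CPM, and Pdcd1, which encodes PD-1, was 36.6 ± 4.60 and 318 ± 34.8 CPM. Cxcr5, Cd4 and Cd3e transcripts were present in all 12 libraries, but not all at equal levels. Cxcr5 was lower in TLCP, at 277 ± 56.9 CPM against 849 ± 78.2 CPM in Tfh (edgeR adjusted p = 1.1e-07). Cd4 was lower as well, at 725 ± 47.1 against 955 ± 47.5 CPM (edgeR adjusted p = 3.3e-05), and Cd3e did not pass (edgeR adjusted p = 0.54). In bulk libraries, fewer cells that make a transcript and less of it per cell cannot be told apart.

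Gbp2 and Gbp5 carry the C-terminal CAAX signal for a lipid anchor that fixes a protein to membranes. Gbp2 (chromosome 3, 142620602 to 142638008, plus strand) is recruited to vacuoles of the parasite Toxoplasma in mouse cells. In the 6 TLCP libraries its lowest, median and highest levels were 162, 230 and 349 CPM, and in the 6 Tfh libraries they were 78.8, 111 and 200 CPM. The groups overlapped, because Tfh library 5 lay above TLCP libraries 1 and 3. Gbp2 was 1.98-fold higher in TLCP (log2 fold change 0.99, SE 0.302, adjusted p = 0.028 by edgeR's quasi-likelihood test), and every TLCP library was above the Tfh library of the same number, by 0.80 to 1.42 on the log2 scale. Its call was lost without any 1 of TLCP libraries 4, 5 and 6 or Tfh libraries 1, 2 and 3 (edgeR adjusted p = 0.05 to 0.063). These fits did not pair the libraries. With the library number as a block in the model, the log2 fold change of Gbp2 was 1.02 (SE 0.0705, edgeR adjusted p = 5.9e-10).

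Gbp5 (chromosome 3, 142493978 to 142522344, plus strand) has been linked to assembly of the NLRP3 inflammasome in macrophages. Its TLCP libraries ranged from 106 to 169 CPM around a median of 125 CPM, and its Tfh libraries from 42.4 to 67.4 CPM around a median of 55.7 CPM. The lowest TLCP library was 1.57-fold above the highest Tfh library, so the groups did not overlap. The log2 fold change was 1.27 (SE 0.146, edgeR adjusted p = 1.2e-05).

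Gbp7 and Gbp3 are the other chromosome 3 members, next to each other and 78.3% identical over their coding bases. Gbp7 (142530342 to 142550149, plus strand) is needed in mice for full control of Toxoplasma and mycobacteria. It stood at 253, 330 and 408 CPM (lowest, median, highest) in TLCP and at 92.0, 116 and 137 CPM in Tfh. All 6 TLCP libraries were high and all 6 Tfh libraries low, and the 6 numbered pairs were within 1.39 to 1.62 on the log2 scale, the narrowest range of the 10 members. The log2 fold change of Gbp7 was 1.52 (SE 0.120, edgeR adjusted p = 2.2e-07). An annotated gene, Gm43802, shares 11.4% of the exon bases of Gbp7, and it held 0 counts in all 12 libraries. Reads that fit more than 1 gene were counted for none (0.4665% to 0.8202% of reads per library). That 0 therefore does not show that Gm43802 is silent, and reads on the shared bases may be missing from Gbp7.

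Gbp3 (chromosome 3, 142560026 to 142573209, plus strand) was higher in TLCP by 1.68 on the log2 scale (SE 0.203, edgeR adjusted p = 6.6e-05). Its TLCP libraries ran from 111 CPM through a median of 126 CPM to 191 CPM, and its Tfh libraries from 31.5 CPM through 43.8 CPM to 56.9 CPM. The groups were separate, with TLCP libraries 5 and 6 the highest and Tfh libraries 2 and 3 the lowest.

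**Figure D1:**
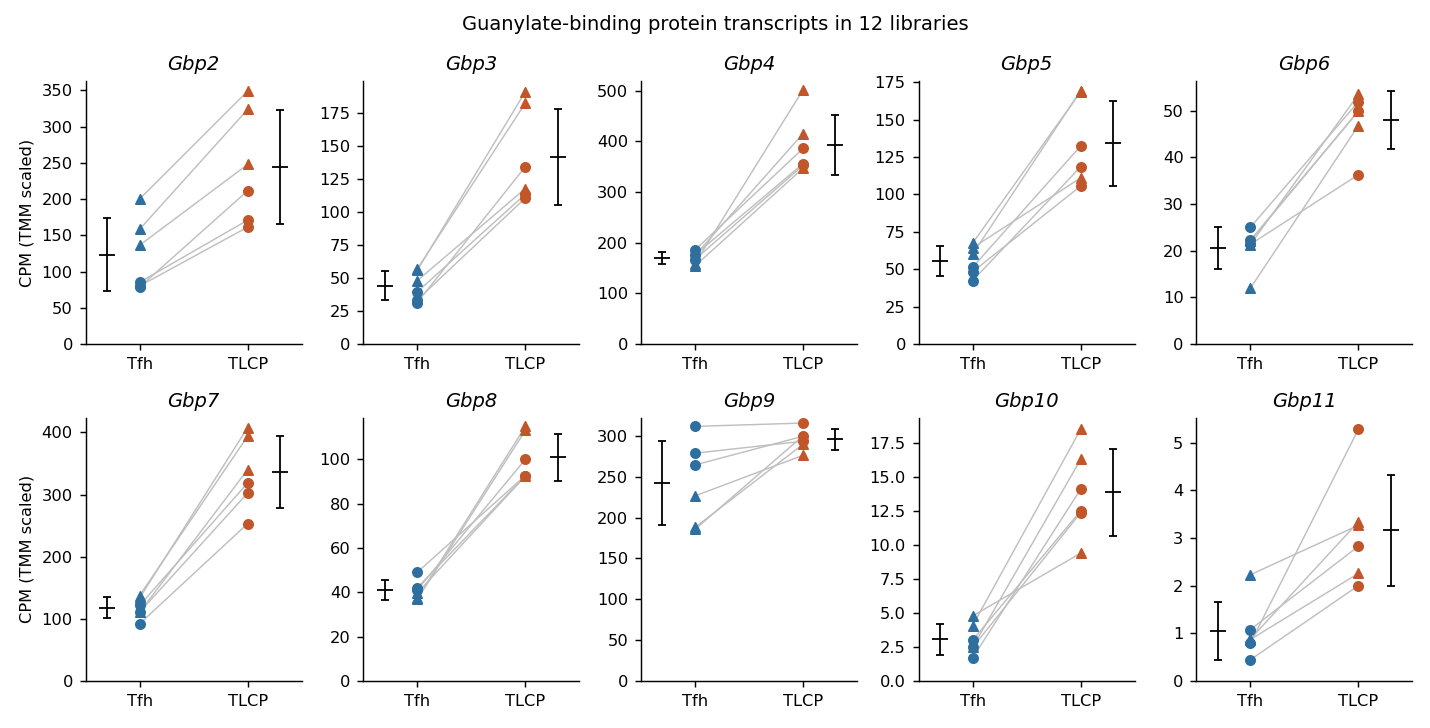
TMM-scaled CPM of the 10 members in each library (vertical axes, linear from 0), with Tfh at left and TLCP at right in each panel. Circles are libraries 1 to 3 and triangles libraries 4 to 6, grey lines join libraries with the same number, and black marks beside the points are mean ± SD (n = 6). Every line rises toward TLCP in all 10 panels, and the lines of Gbp9 rise least in libraries 1 to 3.

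On chromosome 5, Gbp8, Gbp9 and Gbp4 start at the same place on the minus strand and share 60 to 61 exon bases there, while the rest of their exons lie apart. Gbp4 (105115767 to 105139586) and Gbp8 (105014150 to 105139540) gave the smallest p-values of the family. Gbp4 was at 347, 371 and 502 CPM (lowest, median, highest) in TLCP and at 154, 171 and 186 CPM in Tfh. Its Tfh libraries were close together, with an SD of 11.7 CPM, and all of them lay below every TLCP library. The log2 fold change of Gbp4 was 1.21 (SE 0.0835, edgeR adjusted p = 1.8e-09).

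Gbp8 was lower in level than Gbp4 on both the CPM and the TPM scale. It was at 92.5, 96.3 and 115 CPM (lowest, median, highest) in TLCP and at 36.8, 40.3 and 49.0 CPM in Tfh. Its log2 fold change was 1.30 (SE 0.0859, edgeR adjusted p = 9.9e-10). The lowest TLCP library was 1.89-fold above the highest Tfh library.

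Gbp9 (105077630 to 105139539, minus strand) lies between them and stood apart. Its 6 TLCP libraries were at 276, 296 and 316 CPM (lowest, median, highest), the tightest TLCP group of the family with an SD of 4.41% of the mean. Its 6 Tfh libraries were at 185, 245 and 312 CPM. The groups overlapped: Tfh library 2 was above 5 of the 6 TLCP libraries, while Tfh libraries 1, 4, 5 and 6 were below all of them. The log2 fold change was 0.29 (SE 0.111, edgeR adjusted p = 0.059), and Gbp9 did not pass the test. All 6 pairs were higher in TLCP, by 0.02 to 0.69 on the log2 scale, and with the library number as a block in the model the change was 0.31 with an adjusted p of 0.0087, which passed. In the authors' deposited table, from DESeq2, its log2 fold change was 0.30 with an adjusted p of 0.028.

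The change of Gbp9 differed with the libraries used. In libraries 1 to 3 alone its log2 fold change was 0.09 (edgeR adjusted p = 0.38), and in libraries 4 to 6 alone it was 0.52 (edgeR adjusted p = 0.00054). The difference between these sets was not tested, and no label names a batch. TLCP levels of Gbp9 were 293 to 316 CPM in libraries 1 to 3 and 276 to 300.01 CPM in libraries 4 to 6, and Tfh levels were 264 to 312 CPM and 185 to 226 CPM.

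**Figure D2:**
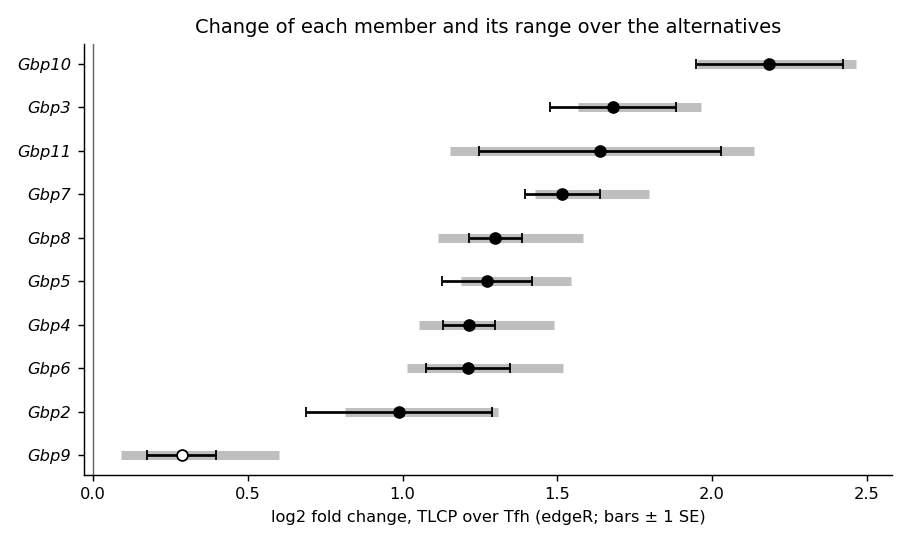
Log2 fold change of each member, TLCP over Tfh (horizontal axis), with bars of ± 1 SE from edgeR on 6 against 6 libraries. Filled points passed an adjusted p of 0.05, the open point (Gbp9, 0.29) did not, and each grey band runs from the lowest to the highest value over 28 alternative settings; no band reaches 0.

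Gbp6, Gbp10 and Gbp11 form the rest of the chromosome 5 cluster, all on the minus strand. Mouse Gbp6 and Gbp10 have been linked to control of mycobacteria in macrophages. They are near-identical copies: 30 of their 1833 coding bases differ, an identity of 98.4%, and the longest identical run is 421 bases. The 60-base stretch with the most differences, coding bases 1567 to 1626 in the GENCODE M21 transcripts, is printed with its 9 differing bases in capitals. Other stretches of that length hold no more differences.
Gbp6: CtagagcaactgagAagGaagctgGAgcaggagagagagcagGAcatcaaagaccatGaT
Gbp10: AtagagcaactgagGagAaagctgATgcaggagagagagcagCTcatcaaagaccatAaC
Of the 50-base windows in their exons, 29.4% in Gbp6 and 15.9% in Gbp10 were found in no other annotated gene, against 80.8% to 98.6% in the other 8 members. The annotated gene Gm43302 also shares 29.0% of the exon bases of Gbp6 and 46.3% of those of Gbp10, and it held 0 counts in every library. The files count reads that map to several places apart from the genes, so the levels of Gbp6 and Gbp10 are undercounted and their changes are uncertain.

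Gbp6 (105270702 to 105293698) was at 36.3, 49.9 and 53.5 CPM (lowest, median, highest) in TLCP and at 11.9, 21.7 and 24.99 CPM in Tfh. The groups did not overlap, and its log2 fold change was 1.21 (SE 0.136, edgeR adjusted p = 1.5e-06). Gbp10 (105215699 to 105239533) had the largest log2 fold change of the 10 members in this fit, on few reads, 19 to 51 counts per Tfh library and 92 to 205 per TLCP library. It was at 9.40, 13.3 and 18.5 CPM in TLCP and at 1.68, 2.73 and 4.78 CPM in Tfh. Every TLCP library was above every Tfh library, and Gbp10 was 4.55-fold higher in TLCP (log2 fold change 2.19, SE 0.237, edgeR adjusted p = 7e-07).

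Gbp11 (105323042 to 105346472) is annotated as a polymorphic pseudogene and had the fewest reads, 236 counts over all 12 libraries. It was at 2.0, 3.05 and 5.29 CPM (lowest, median, highest) in TLCP and at 0.443, 0.872 and 2.23 CPM in Tfh. Tfh library 4 lay above TLCP library 1, and the other Tfh libraries lay below all TLCP libraries. The log2 fold change was 1.64 (SE 0.390, edgeR adjusted p = 0.0029). In libraries 4 to 6 alone the change of Gbp11 was 1.19 and did not pass (edgeR adjusted p = 0.16).

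Levels can be compared between genes only per length, for which the deposited TPM values were used. Summed over the 10 members, TLCP libraries held 982 ± 224 TPM (SD, n = 6, range 676 to 1271) and Tfh libraries 381 ± 50.7 TPM (range 322 to 449). TPM were not rescaled between libraries, and on that scale the median log2 change of all genes was 0.25, so the order within a group is given here rather than the size of the difference. In TLCP the order by mean TPM was Gbp2 at 258, Gbp7 at 158, Gbp9 at 149, Gbp4 at 138, Gbp3 at 115, Gbp8 at 76.9, Gbp5 at 53.4, Gbp6 at 21.3, Gbp10 at 9.45 and Gbp11 at 3.03. Neighbours in that order overlapped in range, except that Gbp5 lay wholly above Gbp6 and Gbp10 wholly above Gbp11. The undercount of Gbp6 and Gbp10 makes their places in the order uncertain in both groups.

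In Tfh the order differed at the top. Gbp9 at 103 TPM and Gbp2 at 102 TPM led, and which of them was higher changed with the library. In Tfh libraries 1 to 3 Gbp9 was at 118 to 138 TPM and Gbp2 at 66.8 to 91.8 TPM, and in Tfh libraries 4 to 6 Gbp9 was at 63.3 to 99.6 TPM and Gbp2 at 103 to 143 TPM. Gbp4 followed at 49.0, Gbp7 at 45.0, Gbp3 at 28.9, Gbp8 at 25.8, Gbp5 at 17.7, Gbp6 at 7.55, Gbp10 at 1.68 and Gbp11 at 0.803 TPM, and ranges of neighbours did not overlap at Gbp2 over Gbp4, Gbp5 over Gbp6 and Gbp6 over Gbp10. Gbp9 made up 26.8% ± 7.25 of the family's TPM in Tfh and 15.8% ± 2.89 in TLCP (SD, n = 6). Gbp3 made up 7.55% ± 1.34 in Tfh and 11.5% ± 1.19 in TLCP, and Gbp7 11.7% ± 0.813 and 16.1% ± 0.694.

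**Figure D3:**
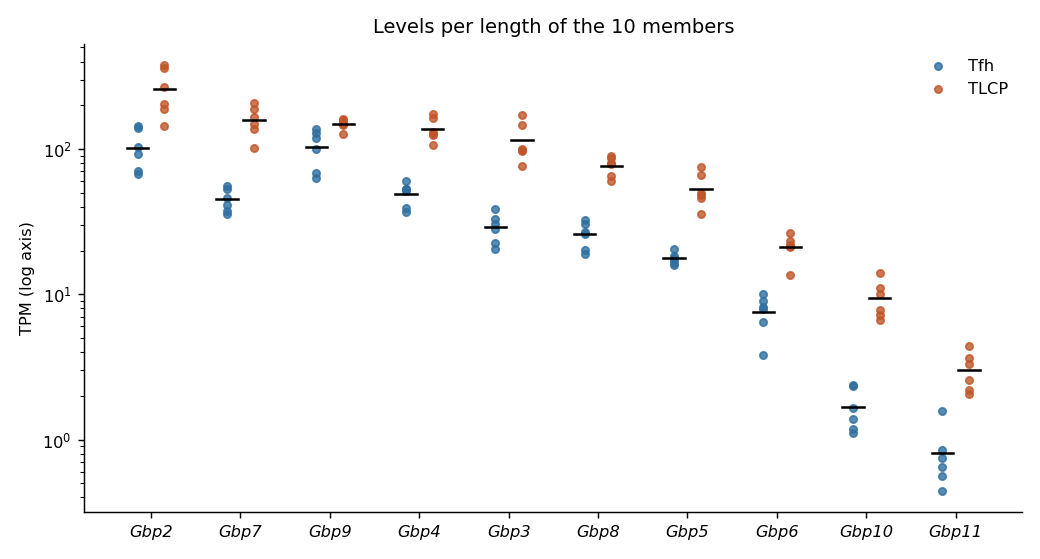
TPM of each member (vertical log axis) in 6 Tfh and 6 TLCP libraries, ordered by mean TLCP level, with black lines at group means. Gbp9 follows Gbp2 and Gbp7 in TLCP at 149 TPM, and in Tfh the means of Gbp9 and Gbp2 are the highest, at 103 and 102 TPM.

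Whether members changed unequally was tested on the log2 ratio of their counts within each library, which does not depend on how libraries are scaled. Of 45 pairs of members, the ratio differed between TLCP and Tfh in 14 (exact permutation test over libraries, 2-sided, Benjamini-Hochberg adjusted over the 45 pairs). Gbp9 was in 8 of these 14 and Gbp10 in 5, with the pair of both counted in each. The log2 ratio of Gbp4 to Gbp9 was 0.40 ± 0.24 in TLCP and -0.49 ± 0.22 in Tfh (SD, n = 6), without overlap (exact permutation p = 0.00216, the smallest that 6 against 6 libraries allow, adjusted p = 0.00974). The ratio of Gbp7 to Gbp9 moved by 1.197 and that of Gbp3 to Gbp9 by 1.37 on the log2 scale, each with the same p-values. The ratio of Gbp2 to Gbp9 did not pass (exact permutation, adjusted p = 0.229), but it was higher in TLCP in all 6 numbered pairs, by 0.17 to 1.41 on the log2 scale. With same-numbered libraries kept as pairs, 13 of the 45 ratios moved one way in all 6 pairs, and 8 of those 13 were ratios with Gbp9. None passed after adjustment: the smallest p that 6 pairs allow is 0.0312 (exact permutation by sign flips), which adjusted to 0.108. Outside the pairs with Gbp9 and Gbp10, the log2 ratio of Gbp2 to Gbp3 moved by -0.66 and that of Gbp3 to Gbp5 by 0.42, both with an exact permutation adjusted p of 0.00974.

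Within groups, some members moved together from library to library. Over the 12 libraries, deviations from the group mean on the log2(CPM + 0.5) scale correlated at 0.933 for Gbp2 and Gbp3, 0.869 for Gbp3 and Gbp5, 0.857 for Gbp2 and Gbp5 and 0.808 for Gbp2 and Gbp7, all on chromosome 3. On chromosome 5 the highest values were 0.646 for Gbp8 and Gbp9 and 0.561 for Gbp6 and Gbp9. Gbp9 ran the other way from the chromosome 3 members, with -0.743 for Gbp2 and -0.703 for Gbp3. These are descriptions over libraries that share a scaling, with deviations that differed between libraries 1 to 3 and 4 to 6. Gbp2 showed this most: its Tfh libraries were at 78.8 to 85.4 CPM in numbers 1 to 3 and at 136 to 200.2 CPM in numbers 4 to 6, and its TLCP libraries at 162 to 212 CPM and 248 to 349 CPM. Within libraries 1 to 3 alone the log2 fold change of Gbp2 was 1.15, and within libraries 4 to 6 alone it was 0.88 (edgeR adjusted p = 6.2e-09 and 0.013).

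**Figure D4:**
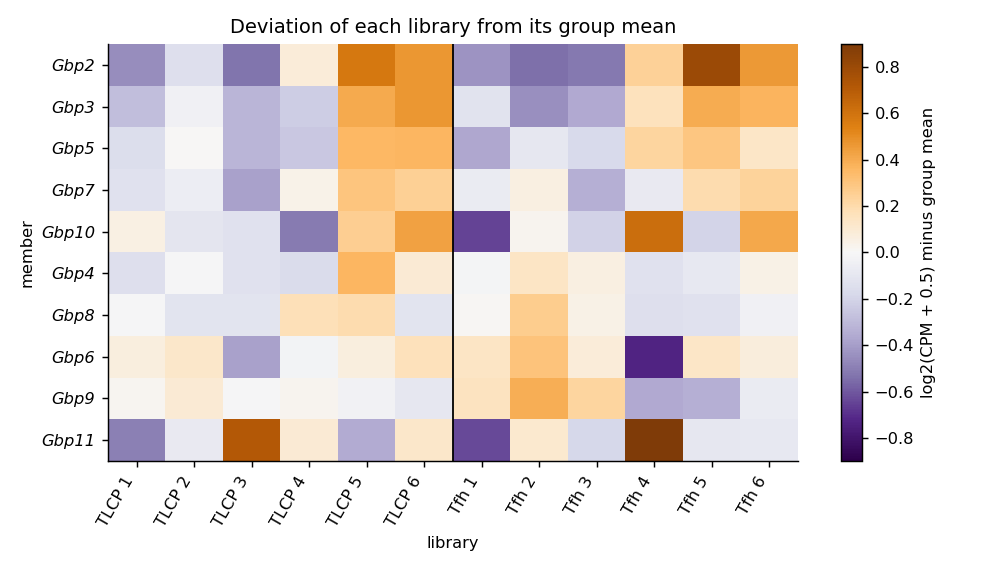
Deviation of each library (columns) from the mean of its group on the log2(CPM + 0.5) scale, for the 10 members (rows); orange is above and purple below the group mean. Gbp2, Gbp3 and Gbp5 are above their group means in libraries 5 and 6 of both groups and Tfh library 4, where Gbp9 is below its mean in all 5.

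The 5 tested genes whose deviations were most like the mean of the members over the 12 libraries were Gtf3c4 (r = 0.947), Cuedc2 (0.936), Iigp1 (0.909), Gm12185 (0.908) and Ypel1 (0.905). Iigp1 is an immunity-related GTPase of the vacuole response, and it was 2.01-fold higher in TLCP (edgeR adjusted p = 0.00027). Gm12185 was higher as well, by 0.77 on the log2 scale (edgeR adjusted p = 0.01). Gtf3c4, Cuedc2 and Ypel1 did not pass the test (edgeR adjusted p = 0.89, 0.31 and 0.29). These 5 genes were picked as the highest correlations among all genes tested, and their r values were not tested. The members themselves followed their mean unequally, from r = -0.137 for Gbp9 and -0.106 for Gbp11 to 0.879 for Gbp7.

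Other interferon-inducible GTPases moved the same way as the members. Of 16 listed, 13 were higher in TLCP, none was lower and 3 did not pass, beside 16.8% higher and 16.4% lower of all genes tested. The median change of the 16 was 0.88 on the log2 scale. The largest change was that of Gbp2b, the gene known in mice as Gbp1, a member of the same family in the chromosome 3 cluster (142594847 to 142619179, plus strand). It was at 8.27, 10.8 and 16.6 CPM (lowest, median, highest) in TLCP and at 0.637, 1.11 and 3.35 CPM in Tfh, without overlap (log2 fold change 2.99, SE 0.333, edgeR adjusted p = 1.4e-06). The 3 with the smallest p were predicted GTPases: 9930111J21Rik2 (158 against 74.7 CPM, log2 fold change 1.08), 9930111J21Rik1 (42.1 against 18.7 CPM, 1.16) and F830016B08Rik (19.98 against 4.88 CPM, 2.04). Irgm1, an immunity-related GTPase that regulates the others, rose by 0.43 (edgeR adjusted p = 0.0031). Mx1, an antiviral GTPase known mainly for its type I interferon response, had a log2 fold change of 0.25 and did not pass (edgeR adjusted p = 0.37).

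Upstream of the family, 11 of 19 genes for interferon sensing and signalling were higher in TLCP, 3 were lower and 5 did not pass. Beside them, 16.8% of all genes tested were higher and 16.4% lower. The median change of the 19 was 0.38 on the log2 scale. Ifng itself, the gene for interferon gamma, was at 40.2 ± 18.9 CPM in TLCP and 11.3 ± 6.02 CPM in Tfh (SD, n = 6; log2 fold change 1.82, SE 0.411, edgeR adjusted p = 0.0061). Ifngr1, a chain of its receptor, was at 117 ± 26.3 and 36.4 ± 11.6 CPM. Irf1, a transcription factor that acts on Gbp promoters, was at 295 ± 43.7 and 180 ± 29.8 CPM (log2 fold change 0.72, edgeR adjusted p = 0.00017). The 3 genes with the smallest p were Socs3, a feedback inhibitor of cytokine signalling, Stat2, which acts in type I interferon signalling, and Jak2, the kinase bound to the interferon gamma receptor. Socs3 rose by 1.29 and Stat2 by 0.57 on the log2 scale, and Jak2 fell by 0.71. In limma on log2(TPM + 1) Jak2 was at -0.42 and did not pass (adjusted p = 0.055).

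Targets of interferon gamma and of type I interferon were compared as lists, by their counts. Of 17 interferon gamma targets tested of 18 listed, 11 were higher in TLCP and none was lower, and the median change was 0.42 on the log2 scale. Serpina3g, a protease inhibitor, rose most among the 3 with the smallest p, from 14.5 to 61.4 CPM (log2 fold change 2.09), and Cd274, which encodes PD-L1, and Nlrc5, the activator of MHC class I genes, rose by 0.59 and 0.48. Of 22 type I interferon targets, 7 were higher, 3 were lower and 12 did not pass, with a median of 0.13, beside 16.8% higher and 16.4% lower of all genes tested. Among these Oas2, an antiviral RNA sensor, rose by 2.34, Zbp1, a nucleic acid sensor, by 0.55, and Parp14 by 0.43. With libraries scaled by their totals alone, the median of all genes moved by 0.17 and the type I list had 11 higher and 1 lower.

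**Figure D5:**
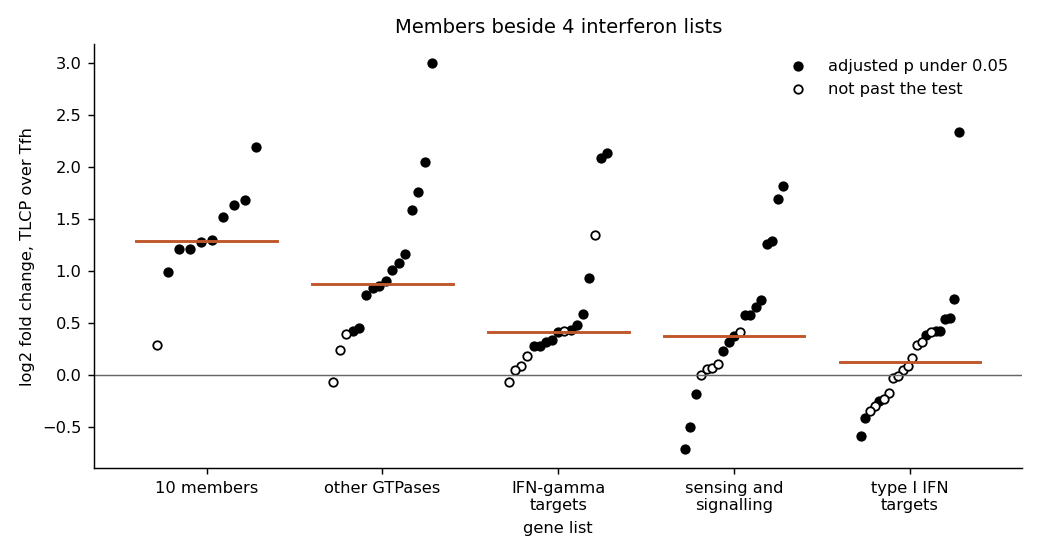
Log2 fold change, TLCP over Tfh, of the 10 members and of the tested genes in 4 interferon lists; each point is a gene, filled where its adjusted p was under 0.05, and the orange line is the median. Medians are 1.29 for the members, 0.88 for other GTPases, 0.42 for interferon gamma targets, 0.38 for sensing and signalling and 0.13 for type I interferon targets.

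Genes of the machinery that acts with guanylate-binding proteins were counted in the same way. Of 9 tested genes of the ATG8 conjugation system, which loads interferon-inducible GTPases onto vacuoles, none was higher and 2 were lower, beside 16.8% higher and 16.4% lower of all genes tested. Gabarap fell by 0.31 and Gabarapl1 by 0.67 on the log2 scale. Gabarap did not pass with libraries scaled by totals alone (-0.13, edgeR adjusted p = 0.31), and neither passed in limma on log2(TPM + 1) (adjusted p = 0.92 and 0.094). The gene next by p, Atg16l1, had a log2 fold change of 0.21 and did not pass (edgeR adjusted p = 0.12), while scaling by totals alone gave 0.38 (edgeR adjusted p = 0.0079). Of 6 genes that prenylate and process CAAX proteins, 1 was lower (16.4% of all genes tested were), Fnta, a subunit of the prenyltransferases, at 33.5 ± 4.19 CPM in TLCP and 43.2 ± 3.37 CPM in Tfh, and it did not pass under scaling by totals alone. Of 8 tested inflammasome and pyroptosis genes, 5 were higher and 1 was lower, beside the same shares of all genes. Gsdmd, which encodes the pore-forming protein gasdermin D, rose by 0.54, while Casp1, the inflammasome protease, fell by 0.41 and passed no longer under scaling by totals alone. Fnta, Gsdmd and Casp1 were chosen for naming after their values were seen.

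Transcripts of other cells were present and moved with the comparison. Immunoglobulin genes held 0.788% to 4.97% of assigned reads in TLCP libraries and 0.114% to 0.401% in Tfh libraries. The share of all genes tested that were higher was 16.8%, to set beside each list here. Of the plasma cell list 7 of 7 tested genes were higher in TLCP, led by Ighm at 10855 and Igkc at 4279 CPM. Its summed levels were 5809 to 34398 CPM against 991 to 2638 CPM. Genes of that list varied unequally in TLCP, with Prdm1 at 92.9 to 131 CPM and Jchain at 550 to 3012 CPM. Which cells made each transcript was not measured. Of the B cell list 6 of 8 were higher, with sums of 478 to 1983 CPM against 267 to 667 CPM. Its most abundant genes were Ms4a1, at 219 CPM in TLCP and 58.6 CPM in Tfh, and Cd22, at 195 and 165 CPM. Cd22 and Pax5 did not pass the test (edgeR adjusted p = 0.51 and 0.1). The basophil and mast cell list had 5 of 5 tested genes higher, at 26.1 to 96.2 CPM against 0.239 to 7.17 CPM, led by Mcpt8 at 17.4 and Prss34 at 14.4 CPM. Their part in the results on the Gbp genes was not tested. Without TLCP libraries 4 and 5, which held the most immunoglobulin reads, 8 of the 10 members were called, and the change of Gbp2 was 0.81 (edgeR adjusted p = 0.12).

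Macrophages, the cells in which guanylate-binding proteins are best known, left few transcripts. Their list summed to 30.2 to 111 CPM in TLCP and 17.8 to 81.8 CPM in Tfh, mostly from Lyz2 at 40.4 and 31.0 CPM, with Cd68 at 5.09 and 4.82 CPM. Of its 8 genes 3 had enough counts to be tested, and none of these passed. The most changed was Csf1r, at 6.42 and 2.18 CPM (log2 fold change 1.56, edgeR adjusted p = 0.058), and 1 gene of the list was higher with the replicate block, with totals alone and in limma on log2(TPM + 1). Adgre1 averaged 2.30 and 0.404 CPM, and Cd14 was under 1 CPM in all 12 libraries. The dendritic cell list summed to 7.57 to 20.7 CPM in TLCP and 0.708 to 7.01 CPM in Tfh. In it 2 of 3 tested genes were higher (16.8% of all genes tested were), with Itgax at 3.64, Flt3 at 3.47 and Zbtb46 at 3.04 CPM in TLCP. The neutrophil list was at 4.79 to 48.0 and 0 to 34.96 CPM (Mpo at 13.9 and S100a9 at 2.44 CPM in TLCP) and the erythroid and platelet list at 33.5 to 89.4 and 3.59 to 72.3 CPM (Hbb-bs at 42.4 and Alas2 at 5.11 CPM in TLCP), with no call in either. Of the CD8 T cell and NK cell list, at 26.3 to 44.3 and 20.4 to 27.4 CPM, 2 of 5 tested genes were higher and 1 was lower. Of all genes tested, 16.8% were higher and 16.4% lower. Eomes, which activated CD4 T cells can also express, rose by 2.10 and Klrb1c fell by 1.46 on the log2 scale.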

How the data were processed

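Polyadenylated RNA of 12 sorted CD4 T cell libraries was measured. The submitters' processing notes list GRCm38, STAR 2.7.1a, bcl2fastq 2.20 and DESeq2 1.30.1, without an annotation release. The authors deposited raw read counts per gene for each library, of which the column on the gene's strand was used. Classes that name no gene (44.9% to 56.4% of reads, 16.1% to 24.3% multimapping) stayed out. The authors also deposited TPM values and a result table with log2 fold changes, p-values, their standard errors and test statistics (score columns) and a normalized signal per library. That deposited signal, multiplied by 1 factor per library taken from the total of the counts, gave whole reads for 100% of values (tolerance 0.01). These equalled the counts, so the count test on them repeats the main fit and called the same 3983 genes.

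Counts were fitted in R 4.3.3 with edgeR 4.0.16: filterByExpr, TMM, robust quasi-likelihood test, 2-sided, Benjamini-Hochberg over 12015 genes. SE is the absolute log2 fold change over the square root of F. The method was tested on simulated data. limma 3.58.1 and DESeq2 1.42.0 were alternatives. The 10 members and the gene lists were chosen with earlier results of these data known. The text names all members, the 3 genes of smallest p per interferon, GTPase and ATG8 list, the 2 most abundant per other-cell list and the 5 most like the family. Other names (Ifng, Ifngr1, Irf1, Irgm1, Mx1, Gbp2b, Adgre1, Cd14, Csf1r, Flt3, the sort genes), the ratio tests (0.5 counts added) and their paired form, and the alternatives with recovered reads and without the 2 TLCP libraries with the most immunoglobulin reads were chosen after seeing the data. Unique windows were counted against GENCODE M21 transcripts, whose gene spans equal those in the files. Libraries of the same number correlated in their deviations at 0.127 to 0.318, all over 0.1, against up to 0.209 between other numbers; 9 of 12 libraries correlated best with their own number. With the 6 mice that the series gives, same-numbered libraries were treated as pairs, which is inferred and not stated in the labels; the block was an alternative. Nothing else says that libraries are separate animals, so p-values measure the spread between these libraries.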

Additional observations from a re-analysis of the deposited data

Results flagged for a closer look

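The highest and lowest libraries of 96 groups of 6 were compared with the gap to the next library (Dixon's 95% critical value). Examined in TLCP and in Tfh were the members, their summed level, Gbp2b and the genes most like the family. The genes of smallest p per interferon, GTPase and ATG8 list and the most abundant genes per other-cell list were examined as well. Other genes named above, such as the sort genes, Ifng, Ifngr1, Irf1, Irgm1, Mx1, Gsdmd, Casp1, Fnta and Csf1r, were not examined. 6 were set apart, and chance sets apart about 1 in 20 groups. Tfh library 4 was low for Gbp6, at 11.9 CPM with the next library at 21.3 CPM, and high for Gbp11, at 2.23 CPM with the next at 1.08 CPM. The same library was high for Zbtb46, at 5.89 CPM beside 1.74 CPM, and for Prss34, at 3.34 CPM beside 0.620 CPM. Tfh library 6 was high for Gbp2b, at 3.35 CPM beside 1.24 CPM. TLCP library 6 was high for Ms4a1, at 422 CPM beside 209 CPM.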

How the results depend on the processing

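Over 28 alternatives, the log2 fold changes of the 10 members kept their direction, and Gbp3, Gbp4, Gbp5, Gbp6, Gbp7, Gbp8 and Gbp10 stayed past the threshold in all 28. The alternative with recovered reads repeats the main fit and adds no check. The count of members called was 8 to 10, and 8 to 9 when each library was left out in turn. Gbp9 (main value 0.29) passed the threshold with RLE size factors (0.30), library totals alone (0.45), DESeq2 (0.30), limma voom (0.30), limma on log2(TPM + 1) (0.59) or log2(TPM + 0.1) (0.60), the replicate block (0.31) and mice 4 to 6 only (0.52), and ran from 0.22 to 0.37 with 1 library left out, passing without Tfh library 2 or 3. Gbp2 missed it with no filter on low counts (0.98) and without the 2 TLCP libraries with the most immunoglobulin reads (0.81), and ran from 0.85 to 1.18 with 1 library left out. Gbp11 missed it in mice 4 to 6 only (1.19) and ran from 1.43 to 1.96 with 1 library left out. The cause was not tested. All genes called were 3489 to 4008 with 1 library left out, 1770 to 2052 of them higher and 1719 to 1974 lower. Scaling by totals alone gave 3207 higher and 893 lower, limma on log2(TPM + 1) 3204 and 473, and on log2(TPM + 0.1) 3154 and 460. Genes called on the 4 interferon and GTPase lists were 39 to 55, and pairs of members whose ratio differed 12 to 17, but 0 with the replicate block, where 6 pairs of libraries allow no smaller adjusted p than 0.108 here. The replicate block changed no call of a member other than that of Gbp9. Depth limits Gbp11 and Gbp10 most, and shared sequence limits Gbp6 and Gbp10.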
